A study of Mus musculus and Bos taurus with 6 samples.

Results

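The clustered miRNA miR-144 and miR-451, together with miR-486, were followed in small RNA libraries of the lactating mammary gland. They were taken as the rows of the count tables named miR-144, miR-451, miR-451a, miR-486 or miR-3107, with the prefix of mouse or bovine. Each mouse table held 7 such rows of 1750: mmu-miR-144-3p, mmu-miR-144-5p, mmu-miR-451a, mmu-miR-486-5p, mmu-miR-486-3p and both arms of mmu-miR-3107. They had 6 distinct mature sequences, because miR-3107-5p has that of miR-486-5p and is counted once here. Each bovine table held 4 of 1539 rows, all distinct: miR-144-3p, miR-451, miR-486-5p and miR-144-5p, the last listed under its mouse name.

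The mouse libraries hold total small RNA of whole abdominal mammary glands of FVB/N mice at day 12 of lactation, with the lymph node removed, and there are 2 of them. A further 2 libraries, called AGO2 libraries, hold the small RNA that came down from lysates of such glands with a monoclonal antibody against Argonaute 2. No library of a control antibody is in the series. The paper proposes that less RNA in the precipitates affected these libraries, and it marks an AGO2 sample for many reads of low count. Rows with a count numbered 839 and 1080 in AGO2 libraries 1 and 2. The 2 bovine libraries hold mammary biopsies of Holstein cows at mid-lactation, each a pool of 2 cows on a low forage diet. No group was treated or carried a transgene. Per the paper, the mice were primiparous and the cows multiparous, and the bovine biopsies were rinsed in saline. The RNA kit also differed between the species, so species, parity, tissue sampling, kit and pooling cannot be told apart. The labels tie no AGO2 library to a given mouse library. The paper's methods name 2 mice as the source of the glands, so the mouse and AGO2 libraries may share animals. Whole glands and biopsies hold blood and vessels beside epithelium, and no red cell gene was measured.

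miR-144 and miR-451 are transcribed together in cells that become red blood cells, where both are among the best known erythroid miRNA, and miR-486 lies within the erythroid ankyrin gene Ank1 and is abundant in red cells and in muscle. Most miRNA are cut from their hairpin by Dicer, which leaves a duplex of a 5p and a 3p strand, of which AGO keeps one. The hairpin of miR-451 is too short for Dicer and is cut by AGO2 itself, so that miR-451 is made only in contact with AGO2 and has no partner strand from Dicer.

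The mature sequences as listed for mouse are shown 5′ to 3′, with the seed, bases 2 to 8, in capitals. They are shown because the 5 have different seeds and because the arms of miR-486 are almost complementary.

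miR-144-5p: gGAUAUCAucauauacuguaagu
miR-144-3p: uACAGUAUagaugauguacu
miR-451a: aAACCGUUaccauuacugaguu
miR-486-5p: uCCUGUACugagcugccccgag
miR-486-3p: cGGGGCAGcucaguacaggau

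No 2 of these miRNA share a seed. Of the other rows of either species, the only one with the same bases 2 to 8 as one of them was miR-6954-5p, with the seed of miR-486-3p and 1 read in mouse library 1. Bases 1 to 20 of miR-144-3p, 1 to 22 of miR-451 and 1 to 22 of miR-486-5p had 0 mismatches between mouse and bovine, and the listed bovine sequences were longer by 2 bases for miR-144-3p and by 1 base for miR-451. miR-486-3p holds a run of 20 of its 21 bases that also stands in the reverse complement of miR-486-5p. The locus miR-3107 lies on the strand opposite to miR-486, and reads of miR-486-5p cannot be assigned to one of these 2 loci. Counts of the rows miR-486-5p and miR-3107-5p differed by 8, 0, 1 and 7 reads in mouse libraries 1 and 2 and AGO2 libraries 1 and 2, and the row miR-486-5p is used below.

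The hairpins of Mir144 and Mir451a are given from RefSeq (GRCm38.p6), with the mature miRNA in capitals, to show where each is cut from. Mir144 is at chr11:78073005-78073070 and Mir451a at chr11:78073170-78073241, both on the plus strand.

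Mir144: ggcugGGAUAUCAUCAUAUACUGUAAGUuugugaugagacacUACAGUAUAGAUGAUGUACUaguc
Mir451a: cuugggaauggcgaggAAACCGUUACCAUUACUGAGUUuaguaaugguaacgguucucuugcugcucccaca

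The hairpins are separated by 99 bases. In the GENCODE annotation of GRCm38 they overlap neither Flot2 nor Eral1, the protein-coding genes looked up on either side. All other genes were not searched. Eral1 lies on the minus strand, with 134 bases between Mir451a and its 3′ end. The locus Mir451b has the same bounds as Mir451a, on the minus strand. In the structure that RNAfold gave for Mir451a, the loop had 4 bases and all of them were part of the mature miRNA, which ran from base 17 to base 38 of the 72-base hairpin. In the structure of Mir144, with 66 bases, neither mature miRNA held a base of the 6-base loop. Mir486 is at chr8:23142555-23142682 on the plus strand and Mir3107 at chr8:23142573-23142662 on the minus strand. Both fall within Ank1 and in an intron of all 15 annotated Ank1 transcripts that span them.

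The counts summed to 9299807 and 8391916 in mouse libraries 1 and 2, to 3909166 and 5041406 in the AGO2 libraries and to 9402483 and 10613807 in the bovine libraries, and the levels given in RPM, counts scaled to one common library size, refer to these sums. A count of 0 allows up to 3 reads, or 0.323 and 0.357 RPM in mouse, 0.767 and 0.595 RPM in AGO2 and 0.319 and 0.283 RPM in bovine libraries. Intervals and such limits cover counting error only, as the reads carry no molecular identifiers. Each group has 2 libraries, so the error between replicates is known only roughly. In bulk RNA, fewer cells of a type and less RNA per cell cannot be told apart.

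miR-451 was the most abundant of these miRNA in each library. It had 11706 and 5397 RPM in mouse libraries 1 and 2, 26598 and 9837 RPM in AGO2 libraries 1 and 2, and 1440 and 854 RPM in bovine libraries 1 and 2. Both bovine libraries were below every mouse and AGO2 library, whereas AGO2 library 2 lay between the 2 mouse libraries. By rank within a library it was 26th and 33rd in mouse, 8th and 15th in AGO2 and 73rd and 85th in bovine. miR-451 made up 87.5% and 82.7% of all reads of these miRNA in mouse, 81.8% and 63.2% in AGO2 and 83.9% and 77.5% in bovine libraries. Together these miRNA took 1.34% and 0.652% of all reads in the mouse libraries, 3.25% and 1.56% in the AGO2 libraries and 0.172% and 0.110% in the bovine libraries.

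miR-144-3p, the guide strand of miR-144, had 1105 and 1035 RPM in mouse, 4767 and 5361 RPM in AGO2 and 14.3 RPM in both bovine libraries. The 3 groups were well apart, and within each group the libraries lay close together, at 1070 ± 49.2, 5064 ± 420 and 14.3 ± 0.0491 RPM (mean ± SD, n = 2). The bovine values rest on 134 and 152 reads, with exact Poisson intervals of 11.9 to 16.9 RPM and 12.1 to 16.8 RPM at 95%. Its rank was 75th and 73rd in mouse, 32nd and 25th in AGO2 and 286th and 277th in bovine libraries.

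miR-144-5p, the strand that is mostly discarded, had 26.1 and 18.7 RPM in mouse, 37.1 and 30.5 RPM in AGO2 and 7.44 and 3.77 RPM in bovine libraries. These levels also fell into 3 groups without overlap, but the bovine values rest on 70 and 40 reads. The exact Poisson intervals of mouse library 1, 22.9 to 29.6 RPM, and AGO2 library 2, 25.9 to 35.8 RPM, overlapped. Such separation was common, as in normalised CPM 72.9% of all rows tested did not overlap between AGO2 and mouse. Between bovine and mouse the share was 84.2%.

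miR-486-5p, the guide strand of miR-486, had 533 and 71.4 RPM in mouse, 1104 and 329 RPM in AGO2 and 255 and 230 RPM in bovine libraries. The mouse libraries were 7.46-fold apart, and both bovine libraries and AGO2 library 2 lay between them. miR-486-3p had 31 and 3 reads in mouse libraries 1 and 2, or 3.33 and 0.357 RPM, and 0 in both AGO2 libraries. miR-3107-3p had 2 reads in mouse library 1 and 0 in the other 3 mouse and AGO2 libraries. In mouse and AGO2 libraries, levels decreased in the order miR-451a, miR-144-3p, miR-486-5p and miR-144-5p. In both bovine libraries miR-486-5p was above miR-144-3p. In each of the 3 groups, neighbours in this order did not overlap.

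**Figure D1:**
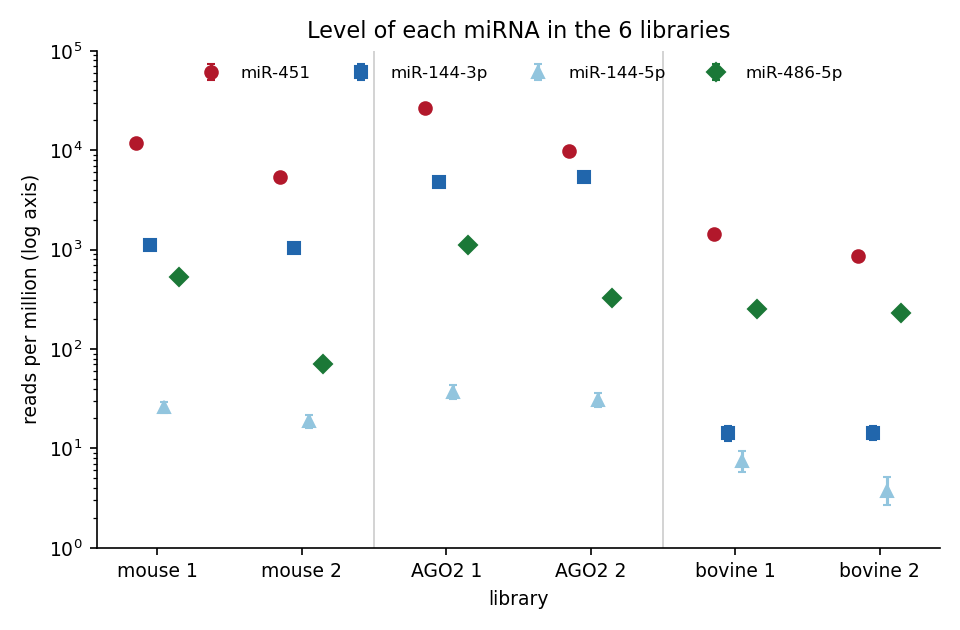
Level of miR-451, miR-144-3p, miR-144-5p and miR-486-5p in RPM on a log axis, in each of the 6 libraries, with exact 95% Poisson intervals, which are mostly smaller than the symbols. miR-144-3p falls from 1105 and 1035 RPM in mouse to 14.3 RPM in both bovine libraries, and miR-486-5p is 7.46-fold apart between the mouse libraries.

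The libraries of a group did not vary alike for all these miRNA. For miR-451, library 1 was 2.17-fold above library 2 in mouse, 2.70-fold in AGO2 and 1.69-fold in bovine. For miR-486-5p the folds were 7.46, 3.36 and 1.11, whereas for miR-144-3p they were 1.07, 0.889 and 0.995. Of the 170 mouse rows with at least 100 RPM in a library, miR-3107-5p left out, only 1 had a higher ratio of library 1 over library 2 than miR-486-5p, and 26 had a higher ratio than miR-451a. In AGO2, 2 and 9 of 166 rows were higher than miR-486-5p and miR-451a, and in bovine 74 and 5 of 172.

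The ratio of library 1 over library 2 moved with the GC content of the miRNA in mouse, with a Spearman rho of 0.51 across 171 rows of at least 100 RPM. It was 0.12 across 167 rows in AGO2 and 0.11 across 172 rows in bovine. These are descriptions across miRNA of the same libraries, which are not independent replicates. The GC content was 30.0% for miR-144-3p, 36.4% for miR-451a and 63.6% for miR-486-5p, so of these 3 the one with the largest gap between mouse libraries was also the richest in GC. The part of GC content in that gap was not tested.

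**Figure D2:**
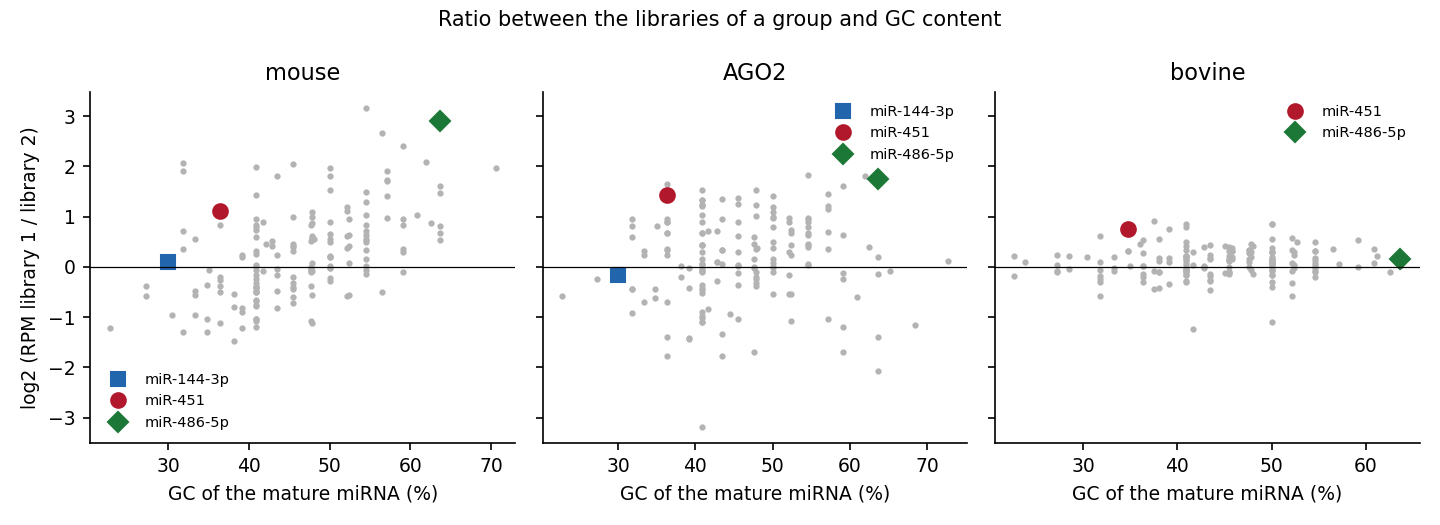
Log2 ratio of RPM in library 1 over library 2 (vertical axis) against the GC content of the mature miRNA in percent (horizontal axis), for miRNA of at least 100 RPM in a library, in mouse, AGO2 and bovine. miR-486-5p, at 63.6% GC, lies at 2.90 in mouse, near the top, and at 0.15 in bovine. miR-451 lies at 1.12 in mouse, 1.44 in AGO2 and 0.75 in bovine, and miR-144-3p at 0.09 in mouse and −0.17 in AGO2.

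Ratios of counts within a library carry no library size, and they set strands and loci side by side. A bias tied to the sequence, such as a trend with GC content between libraries, is not removed from them. miR-144-5p made up 2.31% and 1.78% of the reads of both miR-144 arms in mouse libraries, with exact binomial intervals of 2.03 to 2.62% and 1.51 to 2.07%. It made up 0.772% and 0.567% in AGO2 libraries, with intervals of 0.652 to 0.908% and 0.481 to 0.663%. In bovine libraries it made up 34.3% and 20.8%, with intervals of 27.8 to 41.3% and 15.3 to 27.3%. The share of the 5p strand was thus lowest in both AGO2 libraries and highest in both bovine libraries, with no overlap between the groups. How often the shares of other arm pairs separate in this way was not computed. For single rows in normalised CPM, 72.9% did not overlap between AGO2 and mouse and 84.2% between bovine and mouse. The bovine 5p row was matched to the mouse sequence, and the bovine denominators were 204 and 192 reads.

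miR-486-3p made up 0.622% and 0.498% of the reads of both miR-486 arms in mouse libraries. In the AGO2 libraries it was found in 0 of 4315 and 0 of 1658 reads, which allows a share of up to 0.0695% and 0.181%. The exact binomial interval of mouse library 1 was 0.423 to 0.882% and so lay above these limits, whereas that of mouse library 2, from 3 reads, was 0.103 to 1.45%. Because of the counts of 0, no log ratio was formed for this pair.

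The 2 loci of chromosome 11 did not keep 1 ratio. There were 10.6 and 5.21 reads of miR-451a for each read of miR-144-3p in mouse libraries, 5.58 and 1.83 in AGO2 libraries and 101 and 59.6 in bovine libraries. The mouse and AGO2 ranges overlapped, and both bovine libraries stood apart from them. The log2 ratio of miR-144-3p over miR-451a was −6.28 ± 0.54 in bovine and −2.89 ± 0.72 in mouse (SD, n = 2). For each read of miR-486-5p there were 22.0 and 75.6 reads of miR-451a in mouse, 24.1 and 29.9 in AGO2 and 5.66 and 3.72 in bovine libraries. Here AGO2 lay within the range of mouse, and bovine again stood apart from both. How often ratios of other miRNA separate was not computed, and 84.2% of single rows did not overlap between bovine and mouse.

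The ratio of miR-451a to miR-23a-3p, in use as a sign of red cell RNA in body fluids because miR-23a-3p varies little with the lysis of red cells, was 0.919 and 0.609 in mouse, 1.84 and 0.933 in AGO2 and 0.0514 and 0.0276 in bovine libraries. The lower AGO2 value was just above the higher mouse value. The bovine libraries had more miR-23a-3p, at 28027 and 30996 RPM, than the mouse libraries, at 12744 and 8868 RPM.

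The 4 log2 ratios were compared with mouse in AGO2 and in bovine, 8 comparisons in all, by exact two-sided permutation tests. With 2 libraries against 2, the smallest p these can give is 0.333, so none could pass 0.05. Each ratio holds miR-451a or miR-144-3p, so the ratios are not independent results. An exact permutation p of 0.333 means only that the 2 groups do not overlap. That value was reached for all 4 ratios in bovine (adjusted p = 0.444 in the exact permutation tests). In AGO2 it was reached for miR-144-5p over miR-144-3p, which was lower by a log2 difference of −1.63, and for miR-451a over miR-23a-3p, which was higher by 0.81. The exact permutation p in AGO2 was 0.667 for miR-144-3p over miR-451a and 1 for miR-486-5p over miR-451a.

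**Figure D3:**
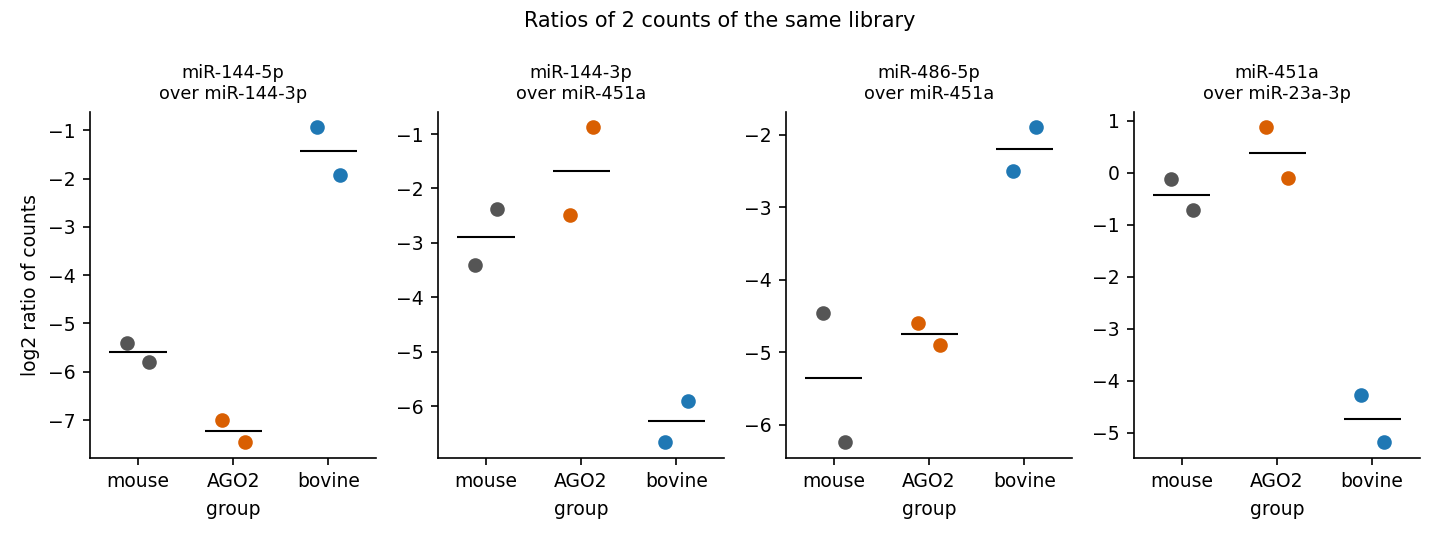
Log2 ratio of 2 counts of the same library (vertical axis, a scale of its own in each panel) for the 2 mouse, 2 AGO2 and 2 bovine libraries, with a line at the mean. Bovine libraries lie apart from the mouse and AGO2 libraries in each panel, and the share of miR-144-5p is lowest in AGO2, with mean log2 ratios over miR-144-3p of −5.60 in mouse, −7.23 in AGO2 and −1.43 in bovine.

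The comparison of AGO2 with mouse libraries asks which miRNA take a larger or smaller share of the AGO2-bound miRNome than of the whole miRNome. Its main tests treat the libraries as unpaired, although the groups may share animals. Of the 7 rows, 5 (4 distinct sequences) reached the minimum count that the study set for a test in 1 or more of these libraries. miR-144-5p passed through mouse library 1 alone, and miR-486-3p and miR-3107-3p did not pass. In the quasi-likelihood test of edgeR, 1 of the 4 sequences, miR-144-3p, was higher in AGO2 at an adjusted p under 0.05 and 0 were lower, where 27.8% of the 299 rows tested were called, 15.4% as higher and 12.4% as lower. At an unadjusted p under 0.05, 2 of the 4 were higher and 0 lower, where 23.1% of all rows were higher. With DESeq2 2 were called higher and 0 lower, where again 23.1% of all rows were called higher.

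miR-144-3p rose by 2.40 on the log2 scale (SE 0.54, adjusted p = 0.00210, edgeR), from 1019 and 1015 CPM after TMM normalisation in mouse to 4838 and 5901 CPM in AGO2. It was the 44th highest fold change of the 299, and it was called under each alternative tried, with a log2 fold change of 2.11 to 2.86. With a library left out, it lay between 2.26 and 2.86.

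miR-451a, the miRNA that AGO2 itself cuts, had a log2 fold change of 1.23 (SE 0.49) that did not pass the test, with an adjusted p of 0.0652 in edgeR. Its normalised levels were 10801 and 5291 CPM in mouse and 26993 and 10827 CPM in AGO2, so that the groups touched but did not overlap, while in RPM they overlapped. Groups did not overlap in normalised CPM in 72.9% of all rows tested. The call depended on the processing and on single libraries. It passed with the DESeq2 test (adjusted p = 0.0466), with DESeq2 size factors in edgeR (adjusted p = 0.0318), and with a GC trend removed (adjusted p = 0.0392). It also passed in edgeR without mouse library 1, where the log2 fold change was 1.84 (adjusted p = 0.0140), and without AGO2 library 2, at 1.76 (adjusted p = 0.0351). In such fits the lone library of a group is assumed to vary like the libraries of the other group. Without mouse library 2 it was 0.81 (adjusted p = 0.323) and without AGO2 library 1 it was 0.75 (adjusted p = 0.415, both edgeR).

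miR-486-5p had a log2 fold change of 1.40 (SE 0.79, adjusted p = 0.183, edgeR), with 491 and 70.0 CPM in mouse against 1120 and 362 CPM in AGO2, which overlapped. Without mouse library 1, under the same assumption, it was 3.40 and passed (adjusted p = 0.00902), and without mouse library 2 it was 0.59 (adjusted p = 0.643). Without AGO2 library 1 it was 0.70 and without AGO2 library 2 it was 2.01, with adjusted p-values of 0.579 and 0.0636 in edgeR. miR-144-5p had a log2 fold change of 0.75 (SE 1.04, adjusted p = 0.575, edgeR) at 24.1 and 18.3 CPM in mouse and 37.6 and 33.6 CPM in AGO2. Over the 4 sequences the median log2 fold change was 1.32, where that of all rows tested was −0.12.

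Other miRNA that are abundant in red cells, but also made in many tissues, were followed as a list of 9. Their summed level was 29615 and 20155 RPM in mouse and 17324 and 9188 RPM in AGO2, so it was lower in AGO2 where miR-144-3p was higher. Of 8 tested, 1 was lower in AGO2, miR-185-5p, by a log2 fold change of −3.23 (SE 0.68, adjusted p = 0.00141, edgeR). Over all 299 rows tested, 12.4% were called lower and 15.4% higher. None were higher in edgeR at an adjusted p under 0.05, at an unadjusted p under 0.05 or with DESeq2. miR-16-5p, the most abundant of the list, had a log2 fold change of −1.05 that did not pass (SE 0.45, adjusted p = 0.0813, edgeR), and the median of the list was −0.43.

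Of 5 leukocyte miRNA, 0 were called in edgeR, 1 was higher at an unadjusted p under 0.05 and 2 were higher with DESeq2. Their sum was 1263 and 2123 RPM in mouse and 2351 and 2971 RPM in AGO2, and all 5 were detected in each library. A list of 4 muscle miRNA is given because miR-486 is also made in muscle. Of 2 tested, miR-1a-3p was lower in AGO2 (log2 fold change −2.82, SE 0.74, adjusted p = 0.00670, edgeR), and miR-133a-3p had a log2 fold change of 2.69 that did not pass (SE 1.44, adjusted p = 0.152, edgeR), with a median of −0.06 over both. The list summed to 163 and 213 RPM in mouse and 28.1 and 79.3 RPM in AGO2, and miR-133b-3p was at 0 in both mouse libraries, with 1 and 46 reads in AGO2, and miR-206-3p at 0 in mouse library 2. The 5 mammary epithelial miRNA of the miR-200 family summed to 158889 and 188120 RPM in mouse and to 337095 and 367567 RPM in AGO2. Of these 5, 2 were called higher and 2 lower, where the shares over all rows were 15.4% and 12.4%. The part of these other cell types in the results was not tested.

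The seed sets the targets of a miRNA, and miR-144-3p shares bases 2 to 7, but not base 8, with the miR-101 family. The same 6 bases stand in bta-miR-199c-3p, which is not of that family. These miRNA are shown with bases 2 to 7 in capitals.

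miR-101a-3p: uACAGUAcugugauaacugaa
miR-101b-3p: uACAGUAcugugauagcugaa
bta-miR-199c-3p: uACAGUAgucugcacauugg

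In mouse libraries miR-144-3p held 25.5% and 16.9% of all reads with these 6 bases, and in AGO2 libraries it held 57.7% and 60.6%. It was thus the smaller part of this seed in both mouse libraries and the larger part in both AGO2 libraries. miR-101a-3p had 836 and 1619 RPM in mouse and 1750 and 1491 RPM in AGO2, and miR-101b-3p had 2387 and 3470 RPM in mouse and 1750 and 2000 RPM in AGO2. Their log2 fold changes, 0.54 (SE 0.58) and −0.49 (SE 0.54), did not pass the test (adjusted p = 0.477 and 0.478, edgeR). In bovine libraries miR-144-3p held 0.893% and 0.912% of the reads with this seed, and the rest was miR-101-3p, at 762 and 665 RPM, and miR-199c-3p, at 819 and 892 RPM.

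The miRNA whose profile over the 4 mouse and AGO2 libraries was most like that of miR-451a were miR-500-3p, miR-93-3p, miR-200a-5p, miR-374b-5p and miR-125a-5p. Likeness was measured as the root mean square distance of log2 CPM, each row centred on its own mean, and it was 0.23, 0.28, 0.34, 0.35 and 0.38 for these 5. Over the 299 rows, miR-144-5p came 17th at 0.51, miR-486-5p 39th at 0.70 and miR-144-3p, of the same cluster as miR-451a, 70th at 0.91. miR-144-3p was centred at −1.19 and −1.20 in mouse and 1.05 and 1.34 in AGO2, and miR-451a at −0.07 and −1.10 in mouse and 1.25 and −0.07 in AGO2. These are descriptions over 4 libraries.

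The comparison of bovine with mouse libraries asks which miRNA differ in level between the lactating glands of the 2 species. Of the 4 bovine rows, 3 had a matched mouse row and at least 100 RPM in a library and were tested. miR-144-3p passed this filter through the mouse libraries alone, so its presence among the rows tested already required a difference. In edgeR, 57.9% of 152 rows were called, 27.6% as higher and 30.3% as lower, so that a call alone says little about a miRNA in this comparison and the size of the changes is described here. Of the 2 members that reached the filter in both species, miR-451 was called lower and miR-486-5p was not called.

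miR-144-3p had 1366 and 1215 CPM in mouse and 12.2 and 12.9 CPM in bovine, a log2 fold change of −6.69 (SE 0.40). Because of the filter its test is taken from the fit without it, over all 251 matched rows, where it fell by 6.73 on the log2 scale (SE 0.57, adjusted p = 2.46e-07, edgeR) and 28.3% of rows were called lower. miR-451 fell by 3.38 (SE 0.54, adjusted p = 0.00659, edgeR), from 14477 and 6334 CPM to 1228 and 769 CPM, and was the 12th lowest of the 152 fold changes. The groups did not overlap for either, as for 84.2% of all rows tested. Under the alternatives tried, the log2 fold changes were −6.84 to −6.22 for miR-144-3p and −3.86 to −2.67 for miR-451. miR-451 was called in each alternative that kept 2 libraries a group. For miR-144-3p, all alternatives but the fit without the filter kept the filter, so its calls in them are not counted as support. The listed bovine sequences of miR-144-3p and miR-451 are longer at the 3′ end, and the part of this in the counts was not tested.

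miR-486-5p had a log2 fold change of −0.81 (SE 0.94, adjusted p = 0.493, edgeR), with 659 and 83.8 CPM in mouse and 217 and 207 CPM in bovine, which lay between the mouse libraries. Its direction was set by the mouse library it was held against. Without mouse library 1 it was higher in bovine, at 1.34 (adjusted p = 1.03e-05), and without mouse library 2 it was lower, at −1.64 (adjusted p = 1.06e-07, both edgeR). In these 2 fits the lone mouse library is assumed to vary like the bovine pools. No direction can be given for miR-486-5p between the species.

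The other red cell miRNA were followed in bovine in the same way. They summed to 49470 and 51345 RPM in bovine against 29615 and 20155 RPM in mouse, with 8 of the 9 listed in bovine. Of 7 tested, 1 was higher in bovine, miR-92a-3p, by a log2 fold change of 2.24 (SE 0.65, adjusted p = 0.0380, edgeR). Over all 152 rows tested, 27.6% were called higher and 30.3% lower. miR-363-3p, which was not tested, had 90.7 and 58.8 RPM in bovine and 3.33 and 5.24 RPM in mouse libraries. None were lower at an adjusted or unadjusted p under 0.05 in edgeR or with DESeq2. The lowest of the 7 log2 fold changes, that of miR-93-5p, was −0.66 (SE 0.35, adjusted p = 0.166, edgeR), and the median was 0.58. miR-16-5p, the largest part of the sum, had 17818 and 12905 CPM in mouse and 21761 and 24186 CPM in bovine (log2 fold change 0.58, SE 0.26, adjusted p = 0.121, edgeR).

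Of the 5 leukocyte miRNA, miR-150-5p and miR-155-5p were higher in bovine and miR-142-3p and miR-223-3p lower, with log2 fold changes of 2.27, 2.01, −1.72 and −1.83. Their sum was 2553 and 3285 RPM in bovine and 1263 and 2123 RPM in mouse. The muscle miRNA miR-1 was higher in bovine, by 1.56 (SE 0.33, adjusted p = 0.0154, edgeR), and the 3 muscle miRNA listed in bovine summed to 727 and 782 RPM. The endothelial miR-126 strands summed to 62356 and 55972 RPM in bovine and 24194 and 34265 RPM in mouse, and 0 of 2 were called in edgeR, at an unadjusted p under 0.05 or with DESeq2. In AGO2 they summed to 29280 and 28819 RPM, with 1 called higher and 1 lower. The mammary epithelial list summed to 73511 and 75031 RPM in bovine, with 4 of 5 called lower than in mouse. For all these lists in bovine, the shares over all rows tested were 27.6% higher and 30.3% lower. The part of blood and of these cell types in the bovine result was not tested.

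**Figure D4:**
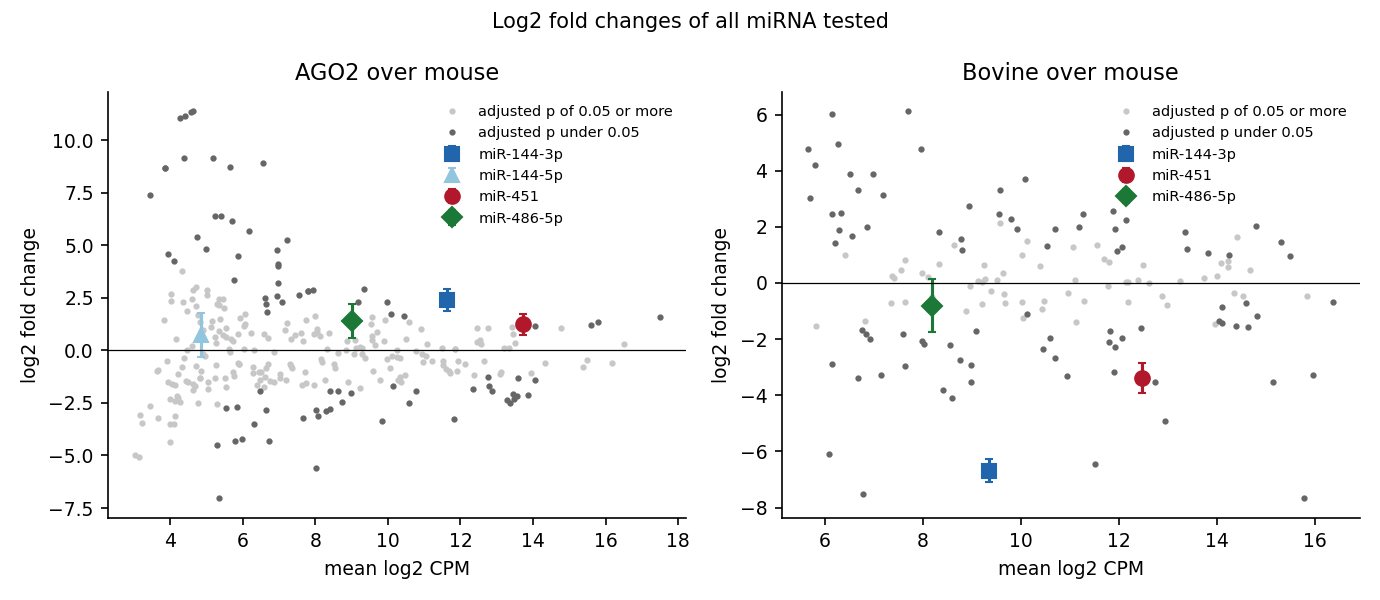
Log2 fold change against mean log2 CPM for the 299 rows of the AGO2 comparison (left) and the 152 of the bovine comparison (right), with the members in colour and bars of 1 SE. miR-144-3p lies at 2.40 on the left and −6.69 on the right, and miR-451 at 1.23 and −3.38. The bars of miR-486-5p are wider than those of miR-144-3p and miR-451 on both sides. On the left, the bar of miR-144-5p is wider still.

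**Figure D5:**
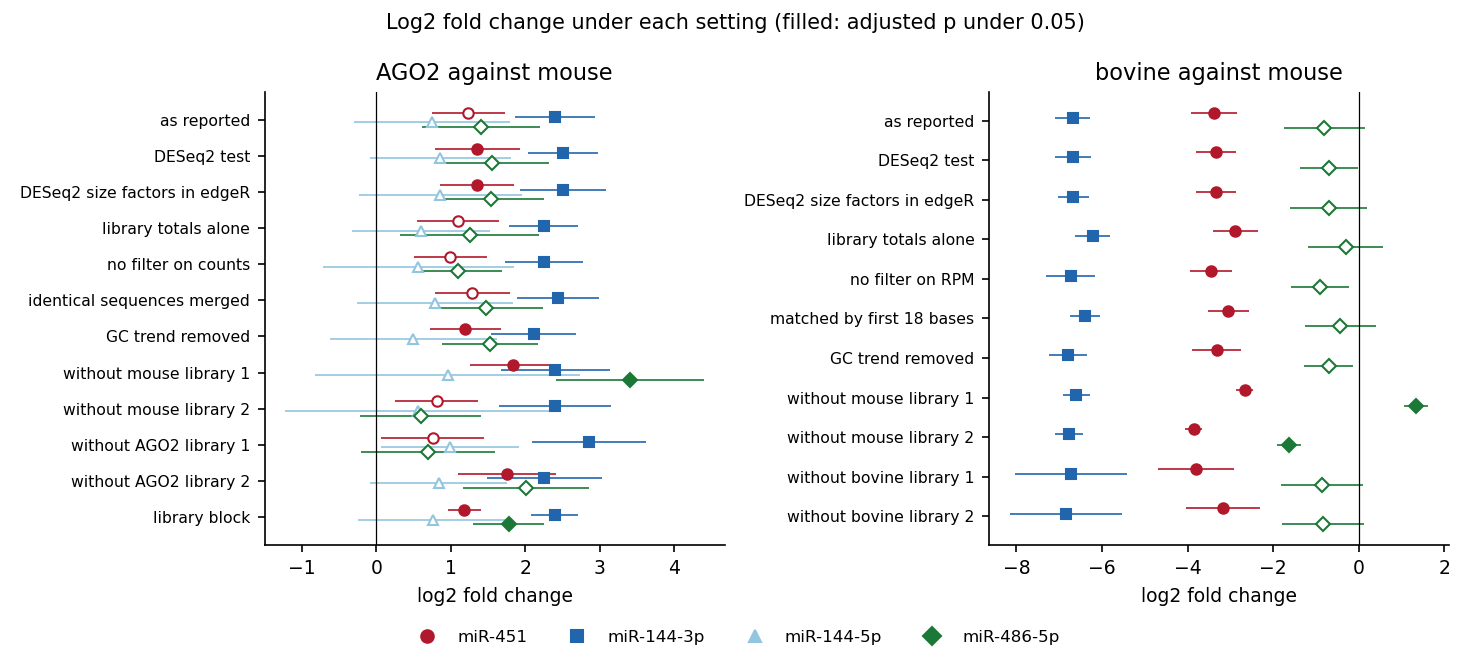
Log2 fold change of the members (horizontal axis, bars of 1 SE) as reported and under each alternative, for AGO2 against mouse (left) and bovine against mouse (right), with filled symbols for an adjusted p under 0.05. miR-144-3p is filled in every line, but on the right only the fit without the filter is free of the filter that it passed through mouse alone. miR-451 is filled in every line on the right and in some on the left. miR-486-5p crosses 0 on the right between the fits without mouse library 1, at 1.34, and without mouse library 2, at −1.64.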

How the data were processed

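Trimming of poly-A, selection of reads between 17 and 28 nt and counting by miRDeep2 on precursors of miRBase 20 or predicted by the program were done by the authors. The deposited values used are these raw counts per mature miRNA, and the deposited normalised counts and lists of predictions were not used. RPM were computed over the sum of each library, with exact Poisson and binomial intervals at 95% and a limit of 3 counts for a count of 0.

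The tests used edgeR 4.0.16 and R 4.3.3 (TMM, quasi-likelihood F test, Benjamini-Hochberg adjustment, calls at 0.05). AGO2 against mouse used rows above the study's minimum count in any library. Bovine against mouse used rows matched by the lines of the study's list of both species (251), with at least 100 RPM in a library. SE is the fold change divided by the root of F. Alternatives were DESeq2 1.42.0, its size factors, library totals, no filter, merged identical sequences, matching by the first 18 bases and each library left out. Removal of a quadratic GC trend and a replicate block were added after seeing the data. Ratios were tested in SciPy 1.17.1 and hairpins folded with RNAfold 2.7.2. The test was checked on simulated data. These were drawn from the dispersion trend of edgeR, with no outlying library and no GC trend, so the check does not vouch for single calls here. Members, marker lists and tests were chosen with earlier results of these data known. Named miRNA are all members, the 5 nearest profiles to miR-451a, the marker lists and rows sharing a seed. Library numbers are names only. Per the study's text the mouse libraries and the AGO2 libraries each come from 2 animals. Its methods name only 2 mice, so these may be the same animals, but the sources used here do not say so outright.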

Additional observations from a re-analysis of the deposited data

How the results depend on the processing

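The limits are 2 libraries a group and, for miR-144-3p in bovine and miR-486-3p, few reads. The labels give no shared replicate numbers, and the study's own sample numbers 1 and 2 are not said to mark the same mouse. A replicate block on these numbers, added after seeing the data, left 1 residual degree of freedom. It gave 121 calls in AGO2 against mouse, and miR-451a (1.18, adjusted p = 0.00386), miR-486-5p (1.78, adjusted p = 0.0180) and miR-3107-5p (1.78) then passed in edgeR. The deviations of library 1 from library 2 in mouse and AGO2 had a Pearson r of 0.24 across 299 rows, which are not independent replicates. Rows called numbered 83 in AGO2 against mouse and 50 to 90 with a library left out (50 without mouse library 1). In bovine against mouse they numbered 88, but 144 without the filter and 46 to 124 with a library left out, with 52 without bovine library 1 and 46 without bovine library 2. Library totals alone in place of TMM moved the median log2 fold change from −0.12 to −0.26 in AGO2 and from 0.04 to 0.51 in bovine, with 52 higher and 36 lower in place of 42 and 46, and DESeq2 size factors moved it to −0.01 in AGO2. Relative to that median, miR-144-3p was at 2.51 to 2.52 in AGO2 and at −6.73 to −6.72 in bovine under the 3 scalings. A change of scaling moves each row and the median nearly alike, so this is no check of miR-144-3p. miR-451a likewise stayed at 1.35 to 1.37 in AGO2.

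In AGO2, miR-451a was at 1.35 with both DESeq2 settings, 1.20 without the GC trend and 0.75 to 1.84 with a library left out. miR-486-5p ranged from 0.59 to 3.40 and miR-3107-5p from 0.60 to 3.41. In bovine, miR-486-5p ranged from −1.64 to 1.34. The log2 ratio of miR-486-5p over miR-451a, AGO2 minus mouse, was 0.60 and −0.29 to 1.49 with a library left out, turning to −0.29 without mouse library 2. Levels in TMM CPM were outside 1 SD of those in RPM for miR-144-3p in mouse (1017 and 1291 CPM in the 2 fits) and bovine (12.5 CPM) and for miR-486-5p in bovine (212 CPM). TMM CPM are computed with the sum over tested rows and a TMM factor in place of the sum over all rows. In the bovine fit these factors were 0.828 and 0.874 in mouse and 1.21 and 1.14 in bovine libraries. Levels of miR-451, and of miR-144-5p in bovine, were not compared in this way. Under the alternatives run, the other results kept their direction and their side of 0.05, or for levels compared stayed within 1 SD.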
